A study of Mus musculus with 16 samples.

Results

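Calcineurin-NFAT and CaMKII signalling was examined through 10 genes of the heart, chosen by name: the calcineurin catalytic subunit genes Ppp3ca and Ppp3cb, the calcineurin inhibitor genes Rcan1 and Rcan2, the NFAT transcription factor genes Nfatc1, Nfatc2, Nfatc3 and Nfatc4, the kinase gene Camk2d and the deacetylase gene Hdac9. They are 10 of the 23946 genes with deposited values, and all 10 were among the 12100 genes tested. PolyA RNA of free wall tissue, taken from either ventricle of adult males of the inbred strain FVB at 10 to 13 weeks of age, gave 16 libraries. The 4 groups of 4 libraries were the right ventricle of banded mice, the right ventricle of sham-operated mice, the left ventricle of banded mice and the left ventricle of sham-operated mice. Banding narrows the pulmonary artery and so raises the pressure against which the right ventricle pumps, while the left ventricle is not loaded by the band directly. The comparison asks which transcripts differ in the overloaded right ventricle. The labels name the operated group PS, which was read here as banded, and give no transgene, drug or other agent in any group. The time between operation and sampling, and whether a right and a left library came from the same mouse, are not given in the sources used here.

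Calcineurin is a phosphatase switched on by calcium and calmodulin. It removes phosphates from NFAT factors, which then enter the nucleus and bind DNA at sites with the core GGAAA, and in the heart this route is known for driving growth of cardiomyocytes. Rcan1 and Rcan2 encode proteins that bind calcineurin and restrain it, and the short Rcan1 transcript, made from a start inside the gene, is itself a known NFAT target. CaMKII, a kinase also switched on by calcium and calmodulin whose delta isoform Camk2d encodes, phosphorylates class II deacetylases. These include the product of Hdac9, which otherwise holds MEF2 factors inactive on growth genes.

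The windows around the starts of Rcan1 are shown because Rcan1 had the largest difference among the 10 genes. Each window runs from 250 bases before to 50 bases after a start, is taken from RefSeq on build GRCm38.p6 and is written along the minus strand, on which Rcan1 lies. Capitals mark the core GGAAA, or TTTCC where it lies on the other strand. The outer start, at chr16:92466120-92466419, held 0 matches, and the internal start, at chr16:92400029-92400328, held 3.
Rcan1 outer start: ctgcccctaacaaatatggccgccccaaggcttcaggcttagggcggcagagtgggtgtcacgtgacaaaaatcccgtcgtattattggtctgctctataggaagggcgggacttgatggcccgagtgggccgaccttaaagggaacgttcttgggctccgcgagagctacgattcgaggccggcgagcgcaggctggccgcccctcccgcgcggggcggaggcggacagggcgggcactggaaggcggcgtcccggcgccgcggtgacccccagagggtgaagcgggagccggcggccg
Rcan1 internal start: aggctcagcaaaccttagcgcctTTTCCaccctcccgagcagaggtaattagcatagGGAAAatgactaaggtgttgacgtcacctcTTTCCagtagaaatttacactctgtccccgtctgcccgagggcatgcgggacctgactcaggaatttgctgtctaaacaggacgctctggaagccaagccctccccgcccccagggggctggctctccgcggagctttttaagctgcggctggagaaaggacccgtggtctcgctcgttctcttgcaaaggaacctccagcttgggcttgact
At least 1 match was found in 61.3% of all 32851 windows in the RefSeq table, and 3 or more in 9.42%. Windows were found for 8 of the 10 genes, all but Ppp3ca and Nfatc1. Ppp3cb had 4 matches, a number reached in 2.65% of windows, Nfatc4 had 3, and the windows of Nfatc2 had 3 and 1. Hdac9 had windows with 2 and 1 matches, Rcan2 windows with 2, 0 and 0, Nfatc3 windows with 1 and 0, and Camk2d a window with 1. A match describes the letters and is not a binding site. The deposited values are per gene, so they do not separate RNA from the 2 Rcan1 starts.

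Levels are given in FPKM, the fragments mapped to a gene relative to its transcript length and to all mapped fragments of the library. The typical level differed between libraries: the scale factor of a library, the median over 8211 genes of its level relative to the geometric mean of the 16 libraries, was 1.22 to 1.28 in 5 banded libraries in which the ribosomal RNA precursor Rn45s was listed at 0 (right ventricle PS_9561 and PS_9564, left ventricle PS_9552, PS_9553 and PS_9561) and 0.840 to 1.02 in the others. Each difference was therefore tested by limma on log2(FPKM + 1) as deposited and again after division by that factor, called rescaled, and a gene is said to have risen or fallen only where it passed an adjusted p of 0.05 in the same direction on both scales. Fold changes are on the log2(FPKM + 1) scale. Estimated depth was lowest in the sham right ventricle, at 343000 to 1400000 fragments per library, against 2370000 to 5820000 in the banded right ventricle. The left ventricle had 3590000 to 8810000 in banded and 1720000 to 4320000 in sham libraries. Of the 6 ventricular cardiomyocyte markers, 0 were listed at 0 throughout a group, which does not tell ventricular from other heart tissue. Over all libraries the 3 atrial markers summed to 3.66 to 348 FPKM and the 6 T cell markers to 0 to 13.3 FPKM. The 5 pancreatic islet markers summed to 24.1 to 2134 FPKM.

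**Figure D1:**
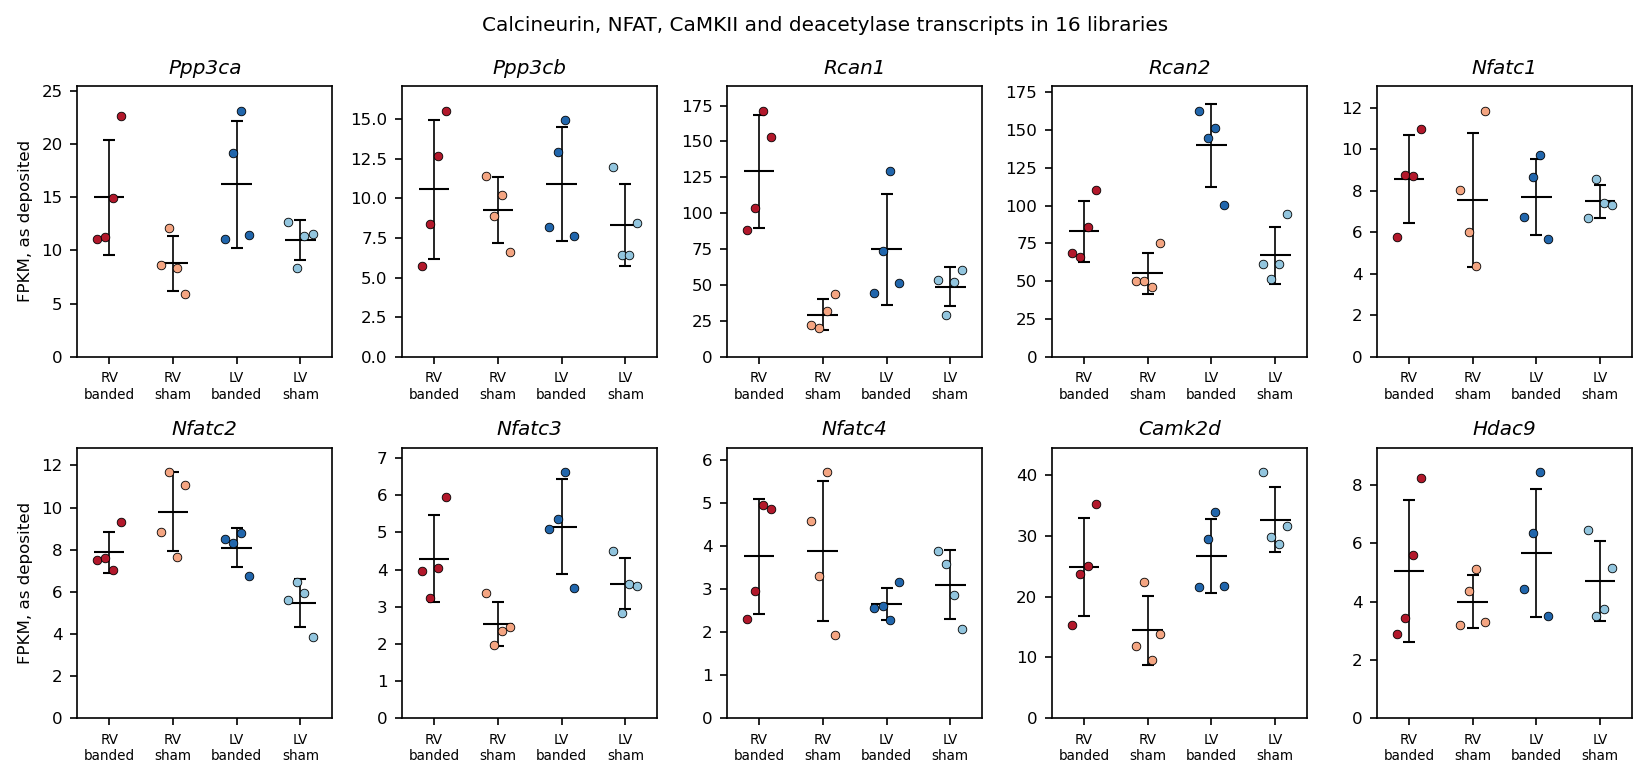
Level of each of the 10 genes in FPKM as deposited (vertical axes, from 0), with 1 point per library and the mean and SD of each group of 4, for the banded and sham right ventricle (RV) and the banded and sham left ventricle (LV). Rcan1 stands at 88.2 to 171 FPKM in the banded right ventricle and 19.8 to 43.4 FPKM in the sham right ventricle, while most of the other genes overlap between groups.

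In the banded right ventricle Rcan1 rose about 4-fold, and it alone of the 10 genes passed on both scales. That share, 1 of 10, stands beside 10.5% of all tested genes that rose and 4.93% that fell in the same comparison, a share near the background and so no result about the set. Without adjustment, 5 of the 10 had a p under 0.05: Rcan1, Camk2d, Nfatc3, Rcan2 and Ppp3ca, all higher in banded hearts, against 34.7% of all tested genes in either direction. The median log2 difference of the 10 genes was 0.39 as deposited and 0.21 rescaled, against 0.26 and 0.11 over all tested genes. The number that passed followed the scaling and the libraries used: 6 passed with TPM scaling, under which the median over all tested genes was 0.65 and 48.2% of them passed in either direction. TPM scaling divides a library by its summed FPKM, of which the single entry Mir6236 made up 21.3 to 59.7% across the 16 libraries. Rn45s, part of the same sum, was listed at 0 to 64943 FPKM. Without sham right ventricular library 2, the shallowest of the 16, 3 passed, against 15.2% of all tested genes in either direction.

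The calcineurin catalytic subunits did not pass in the right ventricle. Ppp3ca, the alpha isoform, lay at 11.1 to 22.7 FPKM in banded and 5.90 to 12.2 FPKM in sham libraries, with means of 15.0 ± 5.41 and 8.78 ± 2.57 (SD, n = 4 each) and a log2 difference of 0.69 (limma adjusted p = 0.0841; rescaled 0.51, adjusted p = 0.141). It passed without sham right ventricular library 2 (0.85, adjusted p = 0.0490; rescaled 0.70, adjusted p = 0.0429). Ppp3cb, the beta isoform, averaged 10.6 ± 4.38 FPKM in banded and 9.26 ± 2.06 FPKM in sham libraries, and its log2 difference was 0.11 as deposited and -0.07 rescaled (limma adjusted p = 0.810 and 0.866).

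Of the inhibitors, Rcan1 had 88.2, 104, 171 and 153 FPKM in banded right ventricular libraries PS_9552, PS_9553, PS_9561 and PS_9564, against 22.5, 19.8, 31.9 and 43.4 FPKM in sham libraries 1 to 4. Every banded library was above every sham library on both scales, as was so of 12.6% of all tested genes as deposited and 10.6% rescaled. The group means were 129 ± 39.5 FPKM in banded and 29.4 ± 10.7 FPKM in sham hearts (SD, n = 4 each), a log2 difference of 2.11 ± 0.33 (SE, 95% interval 1.41 to 2.81, limma adjusted p = 0.000714). Rescaled, the difference was 1.92 (limma adjusted p = 0.000430), a fold of 3.79 against 4.32 as deposited. Rcan1 kept this call under every alternative run, with log2 differences of 1.73 to 2.60. The lowest came from the libraries with an Rn45s value alone, which leave 2 banded libraries (limma adjusted p = 0.0218). The Rcan1 values rest on an estimated 444 to 1980 fragments per banded and 14.4 to 100 per sham right ventricular library, if fragments were 200 nt long.

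Rcan2, which encodes a related calcineurin inhibitor abundant in heart and brain, had 68.8, 66.2, 86.1 and 110 FPKM in the same banded right ventricular libraries and 49.9, 49.9, 46.0 and 75.1 FPKM in the sham libraries. Sham library 4 stood apart from the other sham libraries and inside the banded range. The log2 difference was 0.57 (limma adjusted p = 0.0807) and 0.38 rescaled (limma adjusted p = 0.103), and Rcan2 passed only without sham right ventricular library 4 (0.73, adjusted p = 0.0345; rescaled 0.49, adjusted p = 0.0432), with quantile normalization or with TPM scaling.

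None of the 4 NFAT factor genes passed in the right ventricle, and their differences ran in both directions. Nfatc3 averaged 4.29 ± 1.16 FPKM in banded and 2.54 ± 0.589 FPKM in sham libraries (log2 difference 0.57, limma adjusted p = 0.0783; rescaled 0.42, adjusted p = 0.0823). Its sham values rest on an estimated 3.93 to 27.2 fragments. Nfatc2 averaged 7.87 ± 0.984 FPKM in banded and 9.81 ± 1.88 FPKM in sham libraries (log2 difference -0.27, limma adjusted p = 0.309; rescaled -0.45, adjusted p = 0.0860). Rescaled, every banded library lay below every sham library for Nfatc2, as was so of 8.92% of all tested genes. Nfatc1 averaged 8.56 ± 2.12 FPKM in banded and 7.57 ± 3.24 FPKM in sham libraries, and Nfatc4 3.76 ± 1.34 FPKM in banded and 3.89 ± 1.63 FPKM in sham libraries. Their log2 differences were 0.20 for Nfatc1 and -0.02 for Nfatc4 as deposited (limma adjusted p = 0.590 and 0.973).

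Camk2d, which encodes the delta isoform of CaMKII, had 15.4, 23.8, 25.0 and 35.2 FPKM in banded right ventricular libraries and 11.9, 22.5, 9.63 and 13.8 FPKM in sham libraries. Sham library 2 lay among the banded libraries, and the other 3 lay below all of them. The log2 difference was 0.75 (95% interval 0.21 to 1.29, limma adjusted p = 0.0520) and 0.57 rescaled (limma adjusted p = 0.0847). Without that sham library, whose depth was estimated at 343000 fragments, it was 0.98 (limma adjusted p = 0.0137) and 0.82 rescaled (limma adjusted p = 0.00535), which passes. Hdac9, the class II deacetylase of the set, averaged 5.04 ± 2.43 FPKM in banded and 4.00 ± 0.915 FPKM in sham libraries (log2 difference 0.21, limma adjusted p = 0.646; rescaled 0.04, adjusted p = 0.928).

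Levels of cell type markers are given for the right ventricular comparison, in which 10.5% of all tested genes rose and 4.93% fell. The summed level of 6 ventricular cardiomyocyte markers was 19010 to 26930 FPKM in banded and 29830 to 33420 FPKM in sham right ventricles, and 3 of the 6 fell. The 5 fibroblast markers summed to 284 to 469 FPKM in banded and 196 to 263 FPKM in sham libraries, and 1 of 5 rose. The 5 endothelial markers summed to 1127 to 1856 FPKM in banded and 1011 to 1423 FPKM in sham libraries, with 1 of 5 higher by the test. The 5 macrophage markers summed to 52.7 to 84.0 FPKM in banded and 47.8 to 66.4 FPKM in sham libraries, and 0 of 5 passed. The 5 mural markers gave 104 to 139 FPKM in banded and 70.4 to 99.3 FPKM in sham libraries, with 2 of 5 higher by the test. Pancreatic islet hormone transcripts, which the heart does not make, summed to 63.0 to 154 FPKM in banded and 635 to 2134 FPKM in sham libraries, and 4 of 5 fell. The part of these shifts in the Rcan1 difference was not tested. In bulk tissue, fewer cells of a type and less RNA per cell cannot be told apart.

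**Figure D2:**
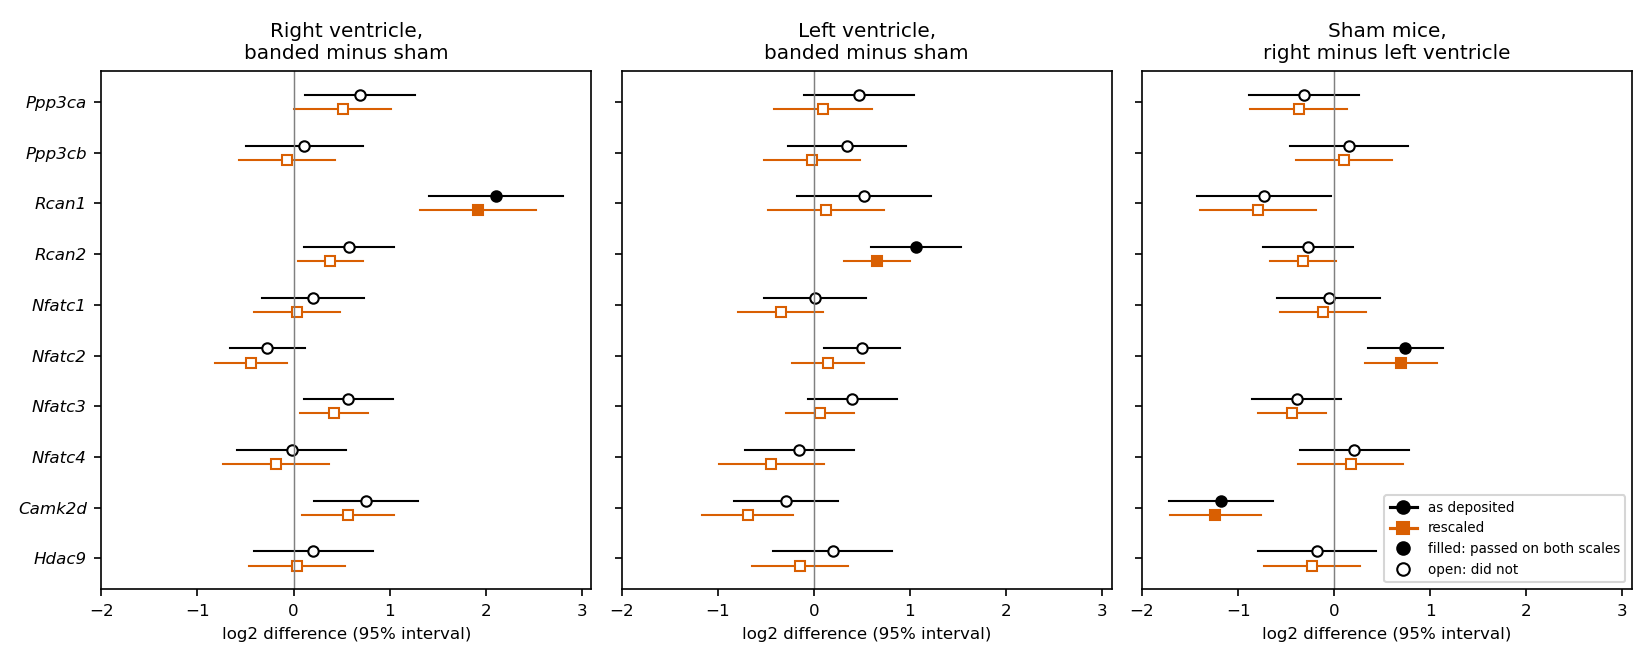
Log2 difference with its 95% interval (horizontal axes) for each of the 10 genes, as deposited (circles) and rescaled (squares), for banded minus sham in the right and left ventricle and for right minus left ventricle in sham mice. Filled symbols passed on both scales: Rcan1 at 2.11 in the right ventricle, Rcan2 at 1.06 in the left ventricle, and Nfatc2 at 0.74 and Camk2d at -1.18 between the ventricles of sham mice.

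In the left ventricle of banded mice Rcan2, not Rcan1, passed on both scales. The share of 1 in 10 stands beside 2.44% of all tested genes that rose and 0.298% that fell. Rcan2 had 163, 145, 151 and 100 FPKM in banded left ventricular libraries and 61.3, 51.4, 61.3 and 94.5 FPKM in sham libraries. As deposited the groups did not overlap, as was so of 22.2% of all tested genes in the higher direction, and rescaled, the lowest banded library at 103 lay just below sham library 4 at 104. The means were 140 ± 27.4 FPKM in banded and 67.1 ± 18.8 FPKM in sham hearts (SD, n = 4 each), a log2 difference of 1.06 ± 0.22 (SE, 95% interval 0.59 to 1.53, limma adjusted p = 0.00553), 0.66 rescaled (limma adjusted p = 0.0347).

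The Rcan2 call in the left ventricle did not hold with TPM scaling, quantile normalization, the libraries of the comparison alone or the length and GC correction, or without any 1 of 6 libraries. Omission of banded left ventricular library PS_9552, PS_9553 or PS_9561, or of sham left ventricular library 1, 2 or 3, each gave a rescaled limma adjusted p between 0.0905 and 0.124. Without 1 of these libraries 0.372 to 1.37% of all tested genes passed in either direction, against 2.74% with all libraries. With TPM scaling the difference was 0.87 (limma adjusted p = 0.0943), with quantile normalization 0.47 (limma adjusted p = 0.115) and with correction for transcript length and GC content 0.54 (limma adjusted p = 0.0689). Of all tested genes, 0.628%, 4.22% and 3.38% passed in either direction under these settings, in that order. A fit to these 8 libraries alone gave a rescaled limma adjusted p of 0.0524, and 4.39% of all tested genes passed in it. The libraries with an Rn45s value alone, which leave 1 banded left ventricle whose spread is taken from the other groups, gave 0.61 as deposited and 0.49 rescaled. With a single banded library the adjusted p of 1 there does not bear on stability. All but 1 of the banded left ventricular libraries are among the 5 with Rn45s listed at 0. Ventricular cardiomyocyte markers summed to 40440 to 48740 FPKM in banded and 20020 to 31170 FPKM in sham left ventricles, and 2 of the 6 rose. Fibroblast markers summed to 323 to 650 FPKM in banded and 180 to 293 FPKM in sham left ventricles, and endothelial markers to 1458 to 2013 FPKM in banded and 930 to 1122 FPKM in sham. Macrophage markers summed to 84.0 to 122 FPKM in banded and 42.2 to 64.6 FPKM in sham left ventricles, and 0 of these 15 markers passed the test. Islet transcripts summed to 24.1 to 58.2 FPKM in banded and 86.6 to 2086 FPKM in sham left ventricles, and 1 of 5 fell (Ins2). The 3 atrial markers summed to 3.66 to 258 FPKM (median 4.06) in banded and 29.1 to 348 FPKM (median 122) in sham left ventricles, with a median log2 difference of -2.74, and 0 of 3 passed. The 5 mural markers summed to 122 to 201 FPKM in banded and 102 to 137 FPKM in sham left ventricles, and 0 of 5 passed. The part of these shifts in the Rcan2 difference was not tested.

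The other 9 genes did not pass in the left ventricle. Rcan1 had 44.2, 73.8, 130 and 51.7 FPKM in banded and 53.7, 29.4, 52.1 and 60.6 FPKM in sham left ventricular libraries. As deposited, banded libraries PS_9561 and PS_9553 lay above all sham values and the other 2 lay among them, with a log2 difference of 0.52 (limma adjusted p = 0.300; rescaled 0.12, adjusted p = 0.865). Nfatc2 had 8.51, 8.32, 8.78 and 6.73 FPKM in banded and 5.62, 6.46, 5.97 and 3.86 FPKM in sham left ventricles. As deposited these groups did not overlap, as was so of 22.2% of all tested genes in this direction, and rescaled they overlapped, with a log2 difference of 0.50 (limma adjusted p = 0.0803; rescaled 0.14, adjusted p = 0.722).

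Camk2d was lower on average in banded left ventricles and did not pass, with 21.6, 29.4, 33.9 and 21.7 FPKM in banded and 40.5, 29.7, 28.7 and 31.7 FPKM in sham libraries. Rescaled, all 4 banded libraries lay below all 4 sham libraries, as was so of 7.79% of all tested genes, with a log2 difference of -0.69 (limma adjusted p = 0.0926), and as deposited it was -0.29 (limma adjusted p = 0.466). The other 6 genes, Ppp3ca, Ppp3cb, Nfatc1, Nfatc3, Nfatc4 and Hdac9, had log2 differences of -0.15 to 0.47 as deposited and -0.44 to 0.09 rescaled. Without adjustment, 2 of the 10 genes, Rcan2 and Nfatc2, had a p under 0.05, against 30.1% of all tested genes.

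The difference between the banding effects, right minus left, was largest for Rcan1. It was 1.59 on the log2 scale as deposited (95% interval 0.60 to 2.57, limma adjusted p = 0.0539) and 1.80 rescaled (95% interval 0.95 to 2.65, limma adjusted p = 0.0164), so it passed on the rescaled values and missed on the deposited ones. Camk2d gave 1.05 as deposited (limma adjusted p = 0.108) and 1.26 rescaled (limma adjusted p = 0.0295). Thus 0 of 10 genes passed on both scales, against 3.98% of all tested genes. On the rescaled values alone 2 of 10 passed, against 5.68% of all tested genes, and without adjustment 3 of 10 had a p under 0.05 as deposited, against 18.2% of all tested genes. The third was Nfatc2, at -0.77 (limma adjusted p = 0.101; rescaled -0.59, adjusted p = 0.177). For Rcan2, higher on average in both banded ventricles, the difference was -0.49 (95% interval -1.15 to 0.18, limma adjusted p = 0.467), an interval that spans 0.

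**Figure D3:**
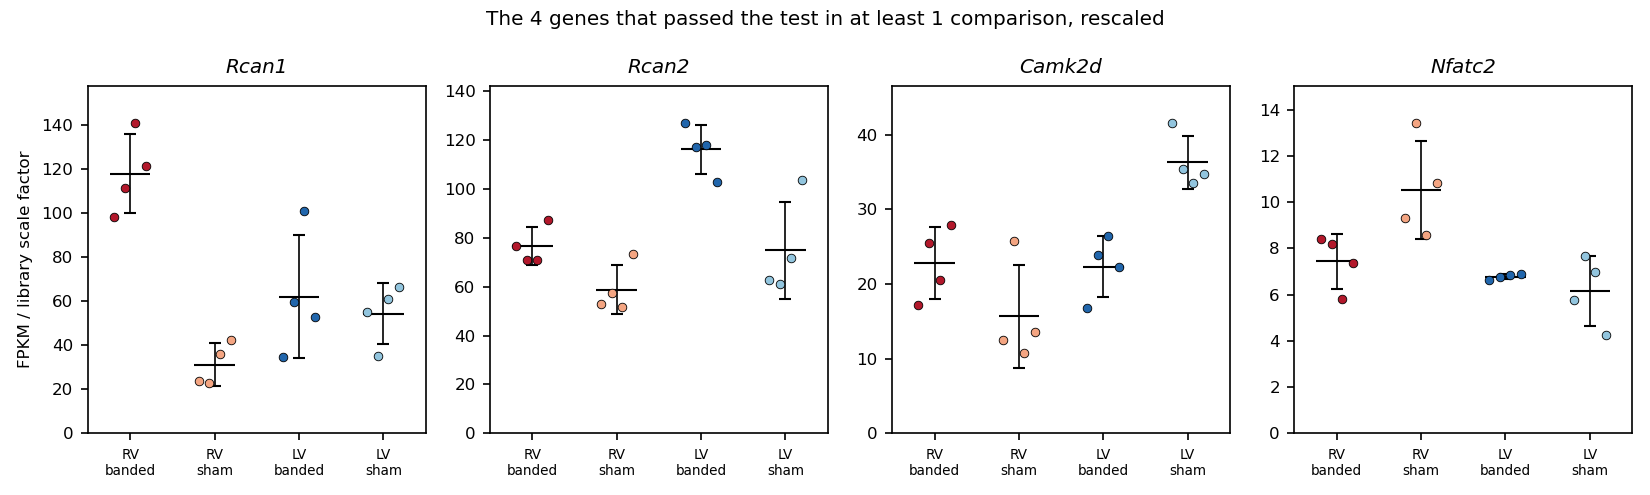
Level after division by the library scale factor (vertical axes, from 0) of Rcan1, Rcan2, Camk2d and Nfatc2, with 1 point per library and the mean and SD of each group of 4. Rcan1 is highest in the banded right ventricle at 98.4 to 141, Rcan2 in the banded left ventricle at 103 to 127, and Camk2d in the sham left ventricle at 33.5 to 41.6.

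Between the ventricles of sham mice, Camk2d was lower and Nfatc2 higher on the right. These are 1 lower and 1 higher of 10 genes, against 1.33% lower and 2.55% higher among all tested genes. Camk2d averaged 14.4 ± 5.62 FPKM in the right and 32.6 ± 5.36 FPKM in the left ventricle (SD, n = 4 each), and the groups did not overlap on either scale, as was so in this direction of 5.04% of all tested genes as deposited. The log2 difference was -1.18 (95% interval -1.72 to -0.63, limma adjusted p = 0.0222) and -1.24 rescaled (limma adjusted p = 0.00749). The call was lost in a fit to these 8 libraries alone (limma adjusted p = 0.0624) and without sham left ventricular library 1 (0.0728) or 3 (0.0612). In these fits 0.331%, 0.826% and 0.661% of all tested genes passed in either direction, in that order.

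Nfatc2 averaged 9.81 ± 1.88 FPKM in the right and 5.48 ± 1.13 FPKM in the left ventricle of sham mice, again without overlap on either scale, as was so of 6.4% of all tested genes in this direction as deposited. The log2 difference was 0.74 (95% interval 0.35 to 1.13, limma adjusted p = 0.0352) and 0.70 rescaled (limma adjusted p = 0.0261). With TPM scaling it was 0.24 (limma adjusted p = 0.456), under which the median over all tested genes was -0.47 and 25% of them passed. Leaving out sham right ventricular library 1, 2 or 4, or sham left ventricular library 1, 3 or 4, also ended the call (limma adjusted p between 0.0522 and 0.0887 as deposited). Of all tested genes, 2.49%, 4.49% and 3.46% passed without these right libraries, and 0.826%, 0.661% and 2.91% without these left libraries, in that order. The Nfatc2 call was lost in a fit to the sham libraries alone as well, in which 0.331% of all tested genes passed. Rcan1 averaged 29.4 ± 10.7 FPKM on the right and 49.0 ± 13.5 FPKM on the left and did not pass (log2 difference -0.73, limma adjusted p = 0.212; rescaled -0.79, adjusted p = 0.0917). Between these ventricles the cardiomyocyte markers summed to 29830 to 33420 FPKM on the right and 20020 to 31170 FPKM on the left, and 2 of 5 islet and 1 of 6 cardiomyocyte transcripts were higher on the right by the test. The mural markers summed to 70.4 to 99.3 FPKM on the right and 102 to 137 FPKM on the left, and 1 of 5 was lower on the right by the test (Rgs5, log2 difference -0.75, limma adjusted p = 0.0470). Their part in the Camk2d and Nfatc2 differences was not tested.

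Between the ventricles of banded mice 0 of the 10 genes passed on both scales, against 1.57% of all tested genes, and 2 had an unadjusted p under 0.05, against 15.4%. These were Rcan1, at 129 ± 39.5 FPKM in the right and 74.8 ± 38.6 FPKM in the left ventricle (log2 difference 0.85, limma adjusted p = 0.200; rescaled 1.01, adjusted p = 0.0749), and Rcan2, at 82.9 ± 20.3 FPKM in the right and 140 ± 27.4 FPKM in the left ventricle (log2 difference -0.75, limma adjusted p = 0.0772; rescaled -0.60, adjusted p = 0.0628). Rcan2 passed with library weights (-0.95, limma adjusted p = 0.00215). Camk2d, which differed between the sham ventricles, averaged 24.8 ± 8.10 FPKM in the right and 26.7 ± 6.06 FPKM in the left ventricle of banded mice (log2 difference -0.13, 95% interval -0.67 to 0.41, limma adjusted p = 0.898).

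The order of the group means was the same on both scales for Rcan1 and for Rcan2. Rcan1 ran from the banded right ventricle through the banded left and sham left to the sham right ventricle, and among neighbours in that order only overlapping groups occurred. Rcan2 ran from the banded left ventricle through the banded right and sham left to the sham right ventricle. Its only neighbours without overlap were the banded left and banded right ventricle, and those only when rescaled, as was so in this direction of 7.69% of all tested genes. For the other 8 genes the order changed with the scale.

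Ratios within a library do not depend on its scale factor. Rcan1 over Rcan2 was 1.28 to 1.99 in the banded right ventricle and 0.397 to 0.694 in the sham right ventricle. In the left ventricle it was 0.271 to 0.856 in banded and 0.573 to 0.877 in sham libraries, so Rcan1 exceeded Rcan2 in all 4 banded right ventricles and in none of the other 12 libraries. Rcan1 over the sum of the catalytic genes Ppp3ca and Ppp3cb was 4.01 to 6.22 in banded and 0.941 to 3.48 in sham right ventricles, against 2.30 to 3.40 in banded and 1.996 to 3.03 in sham left ventricles. That sum leaves out Ppp3cc, another catalytic gene outside the 10. These ratios compare levels per length and are given as a description.

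The make-up of each family is given as shares of summed FPKM. Of the sum of Ppp3ca, Ppp3cb and Ppp3cc, Ppp3cc held 28.5 to 42.2% in banded and 38.2 to 61.4% in sham right ventricles. Ppp3ca held 34.9 to 42.5% in banded and 18.3 to 35.8% in sham right ventricles. In the left ventricle Ppp3cc held 35.6 to 41.7% in banded and 30.1 to 40.5% in sham libraries. Camk2d made up 36.2 to 45.0% of the summed FPKM of the 4 CaMKII genes in banded right ventricles and 18.7 to 38.4% in sham right ventricles, and Camk2a, the isoform best known from brain, 16.6 to 20.9% in banded and 29.4 to 37.0% in sham right ventricles. In the left ventricle the Camk2d share was 34.5 to 49.0% in banded and 47.3 to 50.3% in sham libraries. Nfatc3 made up 14.3 to 20.2% of the NFAT sum in banded and 8.62 to 13.6% in sham right ventricles. Nfatc2 made up 28.5 to 38.5% in banded and 35.5 to 50.8% in sham right ventricles. Hdac9 was a minor class IIa deacetylase transcript, at 4.88 to 9.72% of the 4 genes in banded and 3.73 to 7.18% in sham right ventricles, where Hdac7 held 48.2 to 57.7% in banded and 41.6 to 53.8% in sham libraries.

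**Figure D4:**
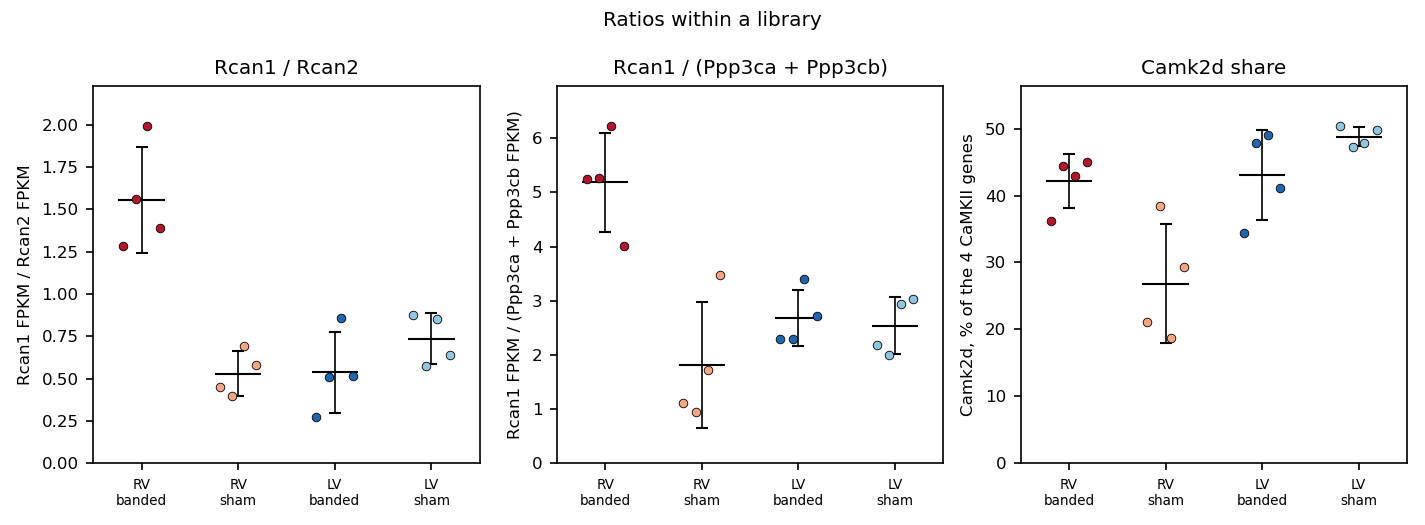
Ratio of Rcan1 to Rcan2, ratio of Rcan1 to the sum of Ppp3ca and Ppp3cb, and Camk2d as a percent of the 4 CaMKII genes (vertical axes, from 0), with 1 point per library and the mean and SD of each group of 4. The 4 banded right ventricles sit at 1.28 to 1.99 for Rcan1 over Rcan2, above all other libraries, and at 36.2 to 45.0% for the Camk2d share, where the sham right ventricles reach 38.4%.

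Other genes of the pathway were followed through 9 lists holding 65 symbols, of which 57 were tested. In the right ventricle 9 rose and 2 fell (19.3%), and without the list of downstream growth genes 4 rose and 2 fell of 50 (12%), against 15.5% of all tested genes in either direction. Akap6, which encodes the anchor that holds calcineurin at the nuclear envelope of cardiomyocytes, averaged 21.8 ± 8.30 FPKM in banded and 9.73 ± 0.689 FPKM in sham right ventricles (log2 difference 1.02, limma adjusted p = 0.00507). It was the 1 of 7 tested regulators and anchors that passed. In the left ventricle Akap6 averaged 19.55 ± 4.197 FPKM in banded and 19.67 ± 2.181 FPKM in sham libraries. Among 9 genes for NFAT kinases and export, Dyrk1a (12.9 ± 5.83 FPKM in banded and 6.06 ± 1.47 FPKM in sham, limma adjusted p = 0.0182) and Csnk1a1 (31.8 ± 8.86 FPKM in banded and 16.02 ± 5.43 FPKM in sham, limma adjusted p = 0.0170) rose. Both encode kinases that phosphorylate NFAT and so oppose calcineurin.

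Among 9 further calmodulin kinase and CaMKII inhibitor genes, Camk2a fell in the right ventricle, to 10.9 ± 3.46 FPKM in banded against 18.0 ± 3.32 FPKM in sham libraries (log2 difference -0.71, limma adjusted p = 0.0239). Of 11 class II deacetylase and MEF2 axis genes, Mef2c rose (13.0 ± 8.02 FPKM in banded and 5.33 ± 1.99 FPKM in sham, limma adjusted p = 0.0353) and Hdac5 fell (22.5 ± 4.04 FPKM in banded and 32.3 ± 2.89 FPKM in sham, limma adjusted p = 0.0273). Mef2c encodes a transcription factor of heart muscle and Hdac5 a deacetylase that represses MEF2 factors. With TPM scaling Camk2a (-0.25) and Hdac5 (-0.04) no longer passed. Under that scaling the median over all tested genes was 0.65, against 0.26 as deposited. With correction for transcript length and GC content Csnk1a1 (0.41) and Mef2c (0.46) no longer passed, while Akap6 (0.395) and Dyrk1a (0.51) did. Without that correction their rescaled differences were 0.78, 0.86, 0.84 and 0.75 in that order. With only the libraries holding an Rn45s value none of Akap6, Dyrk1a, Csnk1a1, Mef2c, Camk2a and Hdac5 passed, at log2 differences of 0.71, 0.60, 0.64, 0.42, -0.92 and -0.69 in that order. Median log2 differences of the 8 lists other than the growth genes ran from 0.07 (subunits) to 0.44 (regulators and anchors) in the right ventricle, against 0.26 over all tested genes. The 2 other calcineurin subunits, 3 calmodulin genes, 5 calcium entry channels and 5 CaMKII substrates held 0 genes that passed in the right ventricle. Depth was lowest in the sham right ventricle, and its part in the differences of these pathway genes was not tested.

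Of the 7 tested growth genes downstream, whose median log2 difference was 2.38, 5 rose in the right ventricle, namely Nppa, Nppb, Xirp2, Acta1 and Myh7. Xirp2, a gene of the cardiomyocyte intercalated disc that MEF2 activates, averaged 74.9 ± 37.9 FPKM in banded and 9.29 ± 3.12 FPKM in sham right ventricles (log2 difference 2.80, limma adjusted p = 0.000370). Acta1, the skeletal muscle actin that the fetal heart also makes, was named after its values were seen and had a sham library at 497 FPKM inside the banded range of 428 to 758 FPKM. Nppa, Nppb and Xirp2 also passed with only the libraries holding an Rn45s value, whereas Acta1 (2.23, limma adjusted p = 0.167) and Myh7 (0.88, limma adjusted p = 0.0929) did not, with 2 banded libraries left.

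In the left ventricle 4 of the 57 pathway genes rose and 0 fell (7.02%), and without the list of downstream growth genes 1 of 50 rose (2%), against 2.74% of all tested genes in either direction. The medians of the 8 lists ran from 0.08 (CaMKII substrates) to 0.70 (subunits), against 0.33 over all tested genes, and that of the growth genes was 1.01. Myoz2 encodes calsarcin-1, a protein of the Z-disc that binds calcineurin and restrains it, and it averaged 1107 ± 211 FPKM in banded and 321 ± 114 FPKM in sham left ventricles (log2 difference 1.82, limma adjusted p = 0.000701; rescaled 1.41, adjusted p = 0.00357). In the right ventricle Myoz2 stood at 489 ± 85.9 FPKM in banded and 360 ± 71.3 FPKM in sham libraries (log2 difference 0.44, limma adjusted p = 0.168). It passed there with TPM scaling (0.94, limma adjusted p = 0.0119) and with quantile normalization (0.66, limma adjusted p = 0.0220). With TPM scaling the median over all tested genes was 0.65, and 48.2% of them passed in either direction, against 17.5% with quantile normalization. Myoz2 did not pass there with correction for transcript length and GC content (-0.05, limma adjusted p = 0.881). The difference between the banding effects, right minus left, was itself past the threshold (-1.37, limma adjusted p = 0.0144; rescaled -1.16, adjusted p = 0.0139). Myoz2 was the 1 of 7 tested regulators and anchors that passed in the left ventricle, beside the summed cardiomyocyte markers given above. Rcan2 also passed there, but its call did not hold under the alternatives given above. Chp1 (0.81, limma adjusted p = 0.00675) and Fkbp1a (0.70, limma adjusted p = 0.0148) of the same list passed as deposited only. Rescaled, they stood at 0.42 (limma adjusted p = 0.144) and 0.30 (limma adjusted p = 0.397). Rcan1 (0.52), Cib1 (0.52), Rcan3 (0.06), Akap6 (-0.03) and Cabin1 (-0.05) passed on neither scale. The other pathway genes that rose were Nppa, Myh7 and Xirp2. Of these, Xirp2 did not pass with TPM scaling (limma adjusted p = 0.0599) or quantile normalization (limma adjusted p = 0.0663). The libraries holding an Rn45s value leave 1 banded left ventricle, whose spread is taken from the other groups, so calls lost there say nothing on stability. In them the log2 differences as deposited were 2.0 for Nppa, 1.30 for Myh7, 1.37 for Myoz2 and 0.76 for Xirp2. Over all libraries the deposited differences were larger, at 2.505, 1.73, 1.82 and 1.64 in that order. The rescaled differences over all libraries were 2.10, 1.32, 1.41 and 1.24.

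**Figure D5:**
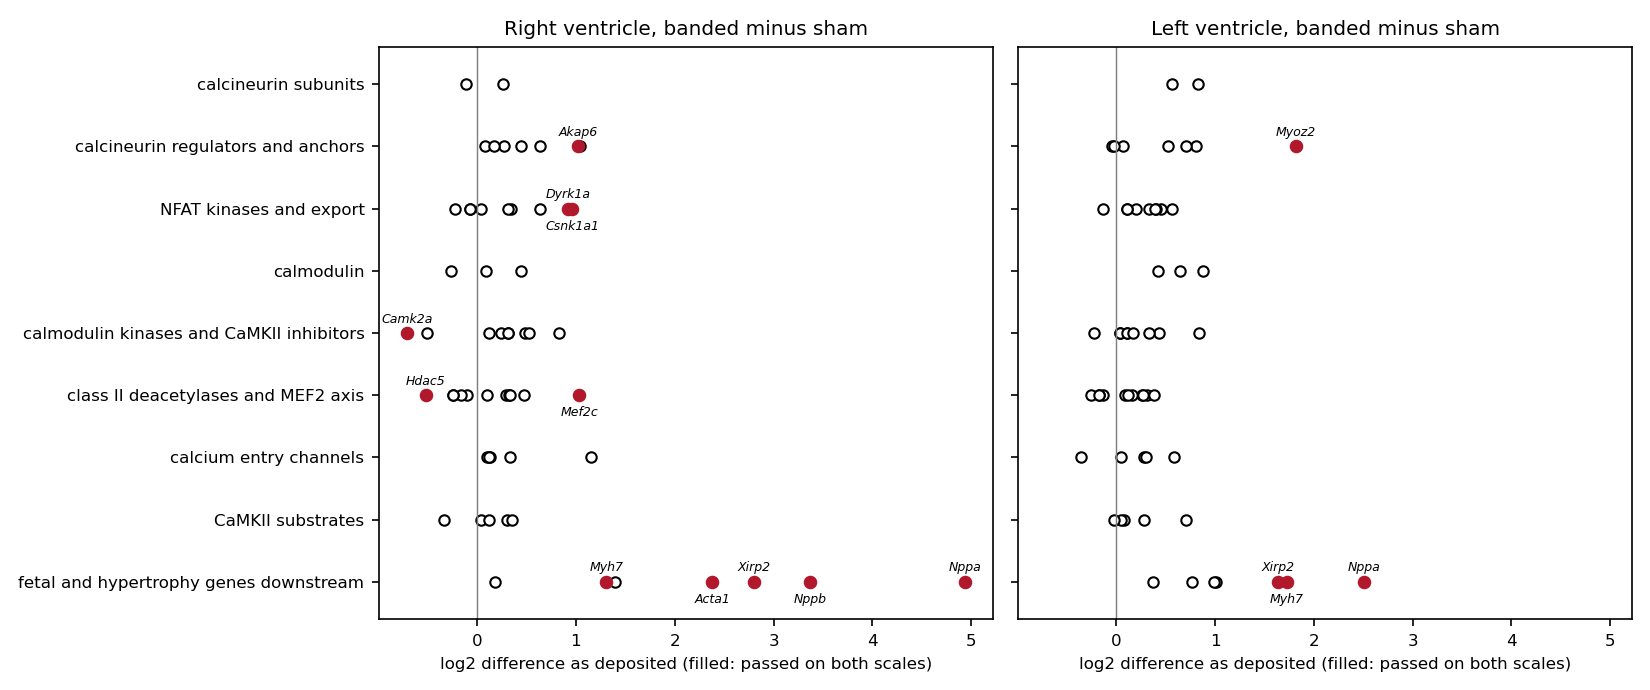
Log2 difference of banded minus sham as deposited (horizontal axes) for the tested genes of 9 pathway lists, in the right and left ventricle, with 1 point per gene and filled points for genes that passed on both scales. Growth genes downstream reach 4.94 (Nppa) in the right ventricle, and Myoz2 at 1.82 is the only filled point outside them in the left.

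By Pearson's r of rescaled log2 levels over the 16 libraries, the genes most like each of the 10 were found among about 6757 genes. Those for Rcan1 were Arhgef7 (r = 0.926) and Enah (r = 0.916). Those for Rcan2 were Dnajc21 and Myom1 (r = 0.924 each), of which Myom1 encodes a protein of the sarcomere M-band. For Camk2d they were Ubr3 (r = 0.932) and Rragd (r = 0.923), for Ppp3ca Kat2b (r = 0.890) and Lims1 (r = 0.889), and for Ppp3cb Fam174a (r = 0.754) and Bicc1 (r = 0.685). For the NFAT genes they were Pom121 (r = 0.818) and Mcu (r = 0.816) with Nfatc1, Aph1a (r = 0.890) and Tenc1 (r = 0.849) with Nfatc2, Atp2b1 (r = 0.891) and Supt16 (r = 0.888) with Nfatc3, and Csf2ra (r = 0.864) and Notch2 (r = 0.856) with Nfatc4. Hdac9 was most like Ltbp1 (r = 0.847) and Zfr (r = 0.773). The points share groups and libraries of unequal depth, so these values describe the 16 libraries only.

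The authors' deposited table of group values gives the same order for Rcan1 in the right ventricle, 156 FPKM in banded and 38.6 FPKM in sham. In the authors' deposited table Rcan2 stands at 175 FPKM in banded and 138 FPKM in sham left ventricles, and Camk2d at 30.3 FPKM in banded and 54.7 FPKM in sham left ventricles. Over the 10 genes and 4 groups, that table's value was 0.813 to 2.22 times the mean of the group's libraries. The factor varied between genes of a group, from 0.957 (Nfatc4) to 2.22 (Hdac9) in the sham left ventricle. For the left ventricle that table put Ppp3ca, Ppp3cb, Nfatc1, Nfatc3 and Hdac9 lower in banded than in sham hearts. The library means as deposited put these genes higher. Rescaled, the library means put Ppp3ca (13.7 in banded, 12.2 in sham) and Nfatc3 (4.27 and 4.02) higher. They put Ppp3cb (9.07 and 9.18), Nfatc1 (6.42 and 8.43) and Hdac9 (4.69 and 5.21) lower. The authors' table put Nfatc4 higher in banded hearts in both ventricles, where the library means put it lower on both scales.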

How the data were processed

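PolyA RNA of 16 libraries, 4 per group, was measured. The deposited values are FPKM per gene and library, per the file headers. Per the submitters' processing notes, the authors used FastQC 0.11.5, STAR 2.5.3a, Cufflinks 2.2.1, Cuffdiff and R 3.3.1 on build mm9. Whether counting used strand is not given in the sources used here, so antisense reads cannot be told apart. Counts were not used here.

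From these, log2(FPKM + 1) was fitted with limma 3.58.1 in R 4.3.3 (4 group means, trended prior, two-sided, Benjamini-Hochberg over the 12100 genes that reached 1 FPKM in 4 libraries or more), as deposited and rescaled, for 5 comparisons. The fit was tested on simulated data. The p-values measure the spread between libraries, which may be technical. Depth was estimated from the steps among low values, with an assumed fragment length of 200 nt, over 3600 genes with GENCODE vM21 lengths.

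The 10 genes, the pathway lists and the alternatives were chosen with earlier results of these data known. Named were all 10 genes, the pathway genes that passed in a banding comparison (up to 4 per list, 2 per direction) and, for each of the 10, the 2 genes of highest r among those averaging at least 5 FPKM. Acta1, Chp1, Fkbp1a and Cib1 were added after their values were seen. Other pseudocounts, filters, scalings, priors, library weights, subsets of libraries, a length and GC correction and a block by library number were tried.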

Additional observations from a re-analysis of the deposited data

Results flagged for a closer look

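Rcan2 in the sham right ventricle had a library, number 4, at 75.1 FPKM, while the other 3 lay between 46.0 and 49.9 FPKM. Its gap to the nearest library was 0.864 of the range of the group, past the 95% critical value of Dixon for 4 samples. This was 1 of 40 groups checked, and chance gives about 1 in 20.

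The effect of banding on Rcan1 differed between the ventricles on the rescaled values, by 1.80 on the log2 scale (limma adjusted p = 0.0164), and as deposited by 1.59 (limma adjusted p = 0.0539). It was higher in banded than in sham hearts by 1.92 on the right side and by 0.12 on the left, rescaled. For Camk2d the rescaled difference was 1.26 (limma adjusted p = 0.0295), made of 0.57 on the right and -0.69 on the left, and as deposited it was 1.05 (limma adjusted p = 0.108). Neither effect of Camk2d passed within a ventricle. Depth was lowest in the sham right ventricle, and its part in these differences was not tested.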

How the results depend on the processing

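In the right ventricle the count of 1 became 6 with TPM scaling (48.2% of all tested genes) and 2 with quantile normalization (17.5%). It was 1 to 3 when 1 library was left out (9.69 to 16.5% of all tested genes). Rcan1 was among the genes that passed each time. In the left ventricle the count of 1 became 0 with TPM scaling (0.628% of all tested genes) and quantile normalization (4.22%). It also became 0 with the libraries of the comparison alone (4.39%) and with the length and GC correction (3.38%). When 1 library was left out it was 0 to 1 (0.372 to 4.73%). The libraries with an Rn45s value leave 1 banded left ventricle, so their count is not given. For the difference of the banding effects the count of 0 became 2 on the rescaled values alone (5.68% of all tested genes) and with TPM scaling (6.23%). It also became 2 with quantile normalization (4.31%) and with the length and GC correction (4.72%), and 1 with a filter at 5 FPKM (7.28%). When 1 library was left out it was 0 to 2 (2.26 to 4.92%). Between banded ventricles the count of 0 became 1 with library weights (6.27% of all tested genes). It stayed at 0 when any library was left out (0.207 to 0.959%). Between sham ventricles the count of 2 became 5 with TPM scaling (25% of all tested genes) and 0 with the libraries of the comparison alone (0.331%). It became 1 with library weights (2.15%) or the libraries with an Rn45s value alone (2.27%). When 1 library was left out it was 0 to 2 (0.661 to 4.49%). No called value changed sign. The cause of these shifts was not tested, except that fewer libraries enter the fits that leave some out. The part of Mir6236 and Rn45s in the TPM results was not tested.

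Libraries of either ventricle that carry an equal number were not shown to be paired. The correlation of their deviations from the group means was -0.0965 to 0.160, over 0.1 in 1 of 8 pairs, and 1 of 8 libraries resembled its own number best. With the number as a block, Rcan1 passed for the difference of the banding effects (1 gene, limma adjusted p = 0.0122) and Nfatc2 no longer passed between sham ventricles (1 gene left, limma adjusted p = 0.120). The counts for banded against sham stayed at 1 in each ventricle.

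Depth limits the lowest genes most: Nfatc3 and Nfatc4 rest on an estimated 3.93 to 27.2 and 4.05 to 22.9 fragments per sham right ventricular library.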
